A study of Homo sapiens with 66 samples.

Results

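Long intergenic noncoding RNAs (lincRNAs) were followed through acute loss of Mediator subunits, CDK9 and BET proteins in KBM7, a near-haploid human leukaemia cell line. Of the 13331 endogenous genes in the deposited count table, 396 carried the biotype lincRNA in GENCODE 29. The 6 whose symbols start with SNHG or read GAS5, which are hosts of small nucleolar RNAs, and the 16 on chromosomes X and Y were left out. The remaining 374 genes are the lincRNAs described here, 2.81% of all genes in the table and a small share of the 7629 lincRNA genes that GENCODE 29 annotates. A filter on low counts left 288 of the 374 for testing and 86 without a test. It asked for enough reads in at least 3 libraries, the size of a group, and these could come from any group. A lincRNA low in DMSO could therefore pass through treated libraries in which it was high.

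Libraries came from QuantSeq, a method that sequences the 3′ end of polyadenylated RNA, so a count is a read near the end of a transcript and does not scale with its length. In 9 engineered lines MED14, MED10, MED6, MED28, MED12, MED31, MED26, MED1 or CDK9 carried the dTAG degradation tag, and each line received 500 nM dTAG7, a compound that brings tagged proteins to an E3 ubiquitin ligase, or the solvent DMSO. Wild-type KBM7 cells received 100 nM dBET6, which degrades BET bromodomain proteins, 250 nM THAL-SNS-032, which degrades CDK9, 500 nM dTAG7, or DMSO. All 22 groups were harvested after 6 h and have 3 libraries each, A, B and C. Replicates were separate wells of a plate. The p-values therefore describe how far these wells varied, which may be technical, and the sources used here do not say whether each line is 1 clone. The mRNA of a tagged gene says nothing about the loss of its protein and served as no check of the labels.

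LincRNAs are made by RNA polymerase II, mostly with a cap, introns and a poly(A) tail, and lie between protein-coding genes. Many start beside a protein-coding promoter and run away from it, or start at enhancers. Mediator is the complex that connects transcription factors with the polymerase at promoters and enhancers. MED14 forms its backbone, MED6 and MED28 belong to its head, MED1, MED10 and MED31 to its middle, MED12 to the detachable kinase module, and MED26 contacts elongation factors. CDK9, the kinase of P-TEFb, releases paused polymerase into elongation, and BET proteins bind acetylated chromatin and assist that step.

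Synthetic spike-in RNA had been added in equal amounts to each lysate, so levels are given here per spike-in: a count divided by the library's spike-in total, times a single constant common to all libraries, on the scale of CPM. On this scale a lower value can come from fewer cells in a well or from less RNA per cell, and the 2 cannot be told apart. Endogenous counts ranged between 439261 and 4337368 per library, with the lowest 8 libraries all from cells treated with dTAG7 in the CDK9 line, dBET6 or THAL-SNS-032, and spike-in counts between 10950 and 72684. Replicates differed by a chi-square per degree of freedom of 1.34 to 20.2, so no library was a duplicate. MED6 dTAG7 replicate A stood furthest apart, at 20.2 and 16.3 against its partners, then MED12 DMSO replicate B, at 9.38 and 9.23. MED12 dTAG7 replicate C (5.22 and 6.36), MED31 dTAG7 replicate A (4.81 and 3.97), MED31 DMSO replicate A (4.7 and 4.21) and MED26 DMSO replicate A (4.68 and 4.51) also stood apart, where their partners differed from each other by 1.34, 1.36, 2.16 and 1.55. Counts of these lines are also given without each library. Among wild-type groups, THAL-SNS-032 replicate B differed from its partners by 3.37 and 5.38, and they from each other by 1.91. The 3 dBET6 libraries differed from one another by 3.1 to 6.43. All 10 listed blood progenitor and myeloid markers were in the table, with a summed level of 1530 to 2420 CPM over the untreated lines. The B cell markers summed to 45.7 to 113 CPM, the T cell markers to 5.14 to 57.1 CPM with 3 of 4 in the table, and the epithelial markers to 27.9 to 91.4 CPM with EPCAM and CDH1 not in the table. None of the 4 fibroblast markers was in the table.

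Some of the lincRNAs are hosts of microRNAs, and the mature sequences show which small RNAs share a transcript with the host whose level is given later. The mature microRNAs themselves were not measured. Capitals mark the seed, bases 2 to 8 from the 5′ end. Sequences and positions are from RefSeq, build GRCh38.p14. MIR29B2CHG carries 2 microRNAs with the shared seed AGCACCA, on the minus strand at chr1:207801865-207801886 and chr1:207802450-207802472. MIR3142HG carries miR-146a on the plus strand at chr5:160485372-160485393, and MIR155HG carries miR-155 on the plus strand at chr21:25573983-25574006.
hsa-miR-29c-3p: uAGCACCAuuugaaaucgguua
hsa-miR-29b-3p: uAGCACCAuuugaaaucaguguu
hsa-miR-146a-5p: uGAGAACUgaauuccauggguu
hsa-miR-155-5p: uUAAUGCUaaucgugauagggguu

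Of the 374 lincRNAs, 110 matched a RefSeq gene and 75 of these have a promoter window of 300 bases, 250 before and 50 after the RefSeq start site. The 4 windows shown belong to a lincRNA that was higher after MED14 loss (LINC01089) and to 3 that were among the most reduced after CDK9 loss (EIF3J-DT, MNX1-AS1 and LINC02361). Capitals mark matches, on either strand, to GGGCGG, the core of the GC box bound by SP1, and to CCAAT, the box bound by NF-Y. The windows lie at chr12:121802897-121803196 on the minus strand for LINC01089, at chr15:44536851-44537150 on the minus strand for EIF3J-DT, at chr7:157010607-157010906 on the plus strand for MNX1-AS1 and at chr12:132189646-132189945 on the minus strand for LINC02361.
LINC01089: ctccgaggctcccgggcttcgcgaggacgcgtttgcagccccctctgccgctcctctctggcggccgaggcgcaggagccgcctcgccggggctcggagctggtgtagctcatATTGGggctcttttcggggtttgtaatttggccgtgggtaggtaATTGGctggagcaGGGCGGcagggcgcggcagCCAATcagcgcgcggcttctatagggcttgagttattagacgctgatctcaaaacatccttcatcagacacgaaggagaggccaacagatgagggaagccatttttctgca
EIF3J-DT: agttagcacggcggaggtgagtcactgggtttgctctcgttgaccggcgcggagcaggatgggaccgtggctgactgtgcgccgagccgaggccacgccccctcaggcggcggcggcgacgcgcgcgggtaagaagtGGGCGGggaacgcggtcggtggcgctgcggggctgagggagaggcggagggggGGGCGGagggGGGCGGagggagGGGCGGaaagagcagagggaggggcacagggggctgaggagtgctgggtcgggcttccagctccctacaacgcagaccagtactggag
MNX1-AS1: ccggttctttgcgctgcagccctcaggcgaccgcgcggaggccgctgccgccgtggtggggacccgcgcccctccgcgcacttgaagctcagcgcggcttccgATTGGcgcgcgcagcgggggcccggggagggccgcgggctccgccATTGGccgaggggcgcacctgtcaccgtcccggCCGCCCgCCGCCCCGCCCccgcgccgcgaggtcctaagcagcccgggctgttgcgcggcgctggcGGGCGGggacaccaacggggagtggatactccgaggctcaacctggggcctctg
LINC02361: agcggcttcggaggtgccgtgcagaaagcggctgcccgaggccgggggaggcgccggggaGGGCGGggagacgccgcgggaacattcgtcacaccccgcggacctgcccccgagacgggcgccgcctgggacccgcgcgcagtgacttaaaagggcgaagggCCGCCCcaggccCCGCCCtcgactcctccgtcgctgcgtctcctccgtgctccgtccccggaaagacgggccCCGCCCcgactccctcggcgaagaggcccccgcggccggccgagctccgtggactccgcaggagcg
Their GC content was 61%, 72%, 77.7% and 76.3% in the order printed, and the RefSeq start used for LINC01089 lies 960 bp from the GENCODE 29 start. GGGCGG occurred 1 time in the window of LINC01089 and 4 times in each of the other 3, and CCAAT 3 times in LINC01089, 2 times in MNX1-AS1 and in neither of the others. Over the 75 windows of lincRNAs, 45.3% held GGGCGG and 38.7% held CCAAT, against 43.4% and 35.4% of all 27305 RefSeq windows of the same length. TATAAA, bound by TBP, was in 10.7% of the lincRNA windows and 12.3% of all. CACGTG, the E-box of MYC, was in 10.7% and 7.19%. The erythroid factor motif AGATAA was in 9.33% and 10.7%, and the MYB motif TAACNG in 18.7% and 20.9%. The CREB site TGACGTCA was in 2.67% and 1.92%. Among the 25 windows of lincRNAs that fell after MED14 loss, 36% held GGGCGG and 32% held CCAAT, and the 4 windows of those that rose are too few for a share.

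LincRNAs were expressed at low levels: the median over the 374 in untreated cells was 3.33 CPM, against 40.9 CPM for the 11341 protein-coding genes. MALAT1 stood far above the rest at a mean of 5840 CPM over untreated libraries, and NEAT1 came next at 741 CPM. Of the 374, 18 averaged under 1 CPM and 94 between 1 and 2 CPM, and of these 2 and 26 could be tested. From 2 to 4 CPM 95 of 97 could be tested, and all 165 above. The precision of a single low lincRNA is therefore set by counts of a few reads per library.

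Most lincRNAs fell after loss of CDK9 or BET proteins, and a smaller part after loss of MED14. Differences were tested with edgeR's quasi-likelihood test on all 66 libraries with spike-in totals as library sizes, and a gene was called at a Benjamini-Hochberg adjusted p under 0.05 over the 12515 genes tested. After dTAG7 in the MED14 line 77 of the 288 tested lincRNAs were called lower (26.7%) and 28 higher (9.72%), beside 63.3% of all genes called lower and 1.7% called higher. CDK9 loss gave 241 lower and 4 higher (83.7% and 1.39%), beside 95.3% and 0.224% of all genes. dBET6 lowered 265 and raised 4 (92% and 1.39%, all genes 97.1% and 0.423%), and THAL-SNS-032 lowered 256 and raised 3 (88.9% and 1.04%, all genes 96.2% and 0.256%). These last 2 comparisons share the wild-type DMSO libraries.

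The other Mediator lines moved few lincRNAs. After MED10 loss 19 were lower and 17 higher, beside 19% and 2.71% of all genes, and after MED6 loss 15 were lower and 10 higher, beside 18.4% and 0.775%. MED28 loss gave 6 lower and 2 higher (all genes 4.07% and 0.775%), MED31 loss 1 lower and 5 higher (2.61% and 0.495%), and MED26 loss 4 lower and 3 higher (2.88% and 0.264%). MED12 loss gave 6 lower (all genes 3.4%) and 0 higher (1.57%) by edgeR, with 12 higher at an unadjusted p under 0.05 and 0 higher by DESeq2. In the MED1 line and in wild-type cells given dTAG7, edgeR called 0 lincRNAs in either direction, as it called 0% of all genes, and DESeq2 called 0 as well. At an unadjusted p under 0.05 there were 4 lower and 8 higher in the MED1 line, and 0 lower and 16 higher in wild-type cells given dTAG7.

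These counts differ in how much they rest on single libraries, seen in fits that applied the count filter anew and so could test other lincRNAs. Each library of a comparison was left out in turn, and a call was counted as kept where it passed in all 6 such fits: 48 of the 77 lower and 12 of the 28 higher calls were kept in the MED14 line, 8 of 19 and 5 of 17 in the MED10 line, and 5 of 15 and 2 of 10 in the MED6 line. After CDK9 loss 198 of the 241 lower calls and 0 of the 4 higher calls were kept, with dBET6 253 of 265 and 3 of 4, and with THAL-SNS-032 225 of 256 and 1 of 3. Without CDK9 DMSO replicate C only 1 lincRNA was higher in the CDK9 line. The MED10 counts dropped to 11 lower without dTAG7 replicate C and to 9 higher without DMSO replicate C. The MED6 counts dropped to 7 lower and 4 higher without dTAG7 replicate A, which stood apart, to 8 lower and 5 higher without DMSO replicate B, and to 4 higher without DMSO replicate C. The MED28 count of 6 lower became 3 without DMSO replicate A, 3 without DMSO replicate B and 2 without dTAG7 replicate B, and its 2 higher became 0 or 1 in each of the 6 fits. The MED12 count of 6 lower stayed 6 without DMSO replicate B, became 1 without DMSO replicate C, 3 without dTAG7 replicate A, 3 without dTAG7 replicate B and 0 without dTAG7 replicate C, and its 0 higher became 1 without DMSO replicate B or dTAG7 replicate C. The MED31 count of 5 higher became 2 without DMSO replicate A or B and 3 without DMSO replicate C or dTAG7 replicate B or C, and its 1 lower became 2 without dTAG7 replicate A and 0 in the other 5 fits. The MED26 count of 4 lower became 2 without dTAG7 replicate B and 1 without any of DMSO replicates A and B and dTAG7 replicates A and C, and its 3 higher became 0 without DMSO replicate B and 1 without dTAG7 replicate C.

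The median log2 fold change of the lincRNAs lay above the median of all genes in most of these comparisons. On the spike-in scale the median over tested lincRNAs was -0.29 after MED14 loss, with quartiles of -0.94 and 0.27 and with 99 of 288 above 0, while the median over all genes was -0.69. It was -2.57 after CDK9 loss (all genes -2.93), -3.31 after dBET6 (all genes -3.67) and -2.64 after THAL-SNS-032 (all genes -2.86). After MED10 loss the lincRNA median was -0.04 and the all-gene median -0.19, and after MED6 loss -0.10 and -0.27. In the other comparisons the lincRNA median lay between -0.04 and 0.10.

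Scaling by TMM, which sets the bulk of endogenous genes to no change, turned the lincRNA medians of the larger responses from below to above 0. After MED14 loss 189 of 288 lincRNAs were below 0 on the spike-in scale and 96 of 321 under TMM. After CDK9 loss these were 280 of 288 and 132 of 321. Under TMM the lincRNA medians were 0.48 after MED14 loss, 0.31 after CDK9 loss, 0.26 after dBET6 and 0.24 after THAL-SNS-032. Of the 321 lincRNAs tested on that scale, 21 were lower and 78 higher after MED14 loss (6.54% and 24.3%, against 16.6% and 13.4% of all genes), and 27 were lower and 74 higher after CDK9 loss (all genes 27% and 21.1%). dBET6 gave 18 lower and 67 higher (all genes 23.2% and 18.2%), and THAL-SNS-032 19 lower and 57 higher (16% and 14.1%). The smaller responses gave 11 lower and 25 higher in the MED10 line (all genes 10% and 8.06%), 5 and 16 in the MED6 line (3.66% and 2.89%), 6 and 3 in the MED28 line (4.34% and 2.09%), and 10 and 0 in the MED12 line (5.7% and 3.06%). The MED31 line had 2 and 7 (3.02% and 1.46%), the MED26 line 1 and 4 (1.4% and 0.97%), the MED1 line 0 and 0 (0.00776% and 0%) and wild-type cells given dTAG7 0 and 0 (0% and 0%). Directions given from here on are on the spike-in scale unless TMM is named.

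**Figure D1:**
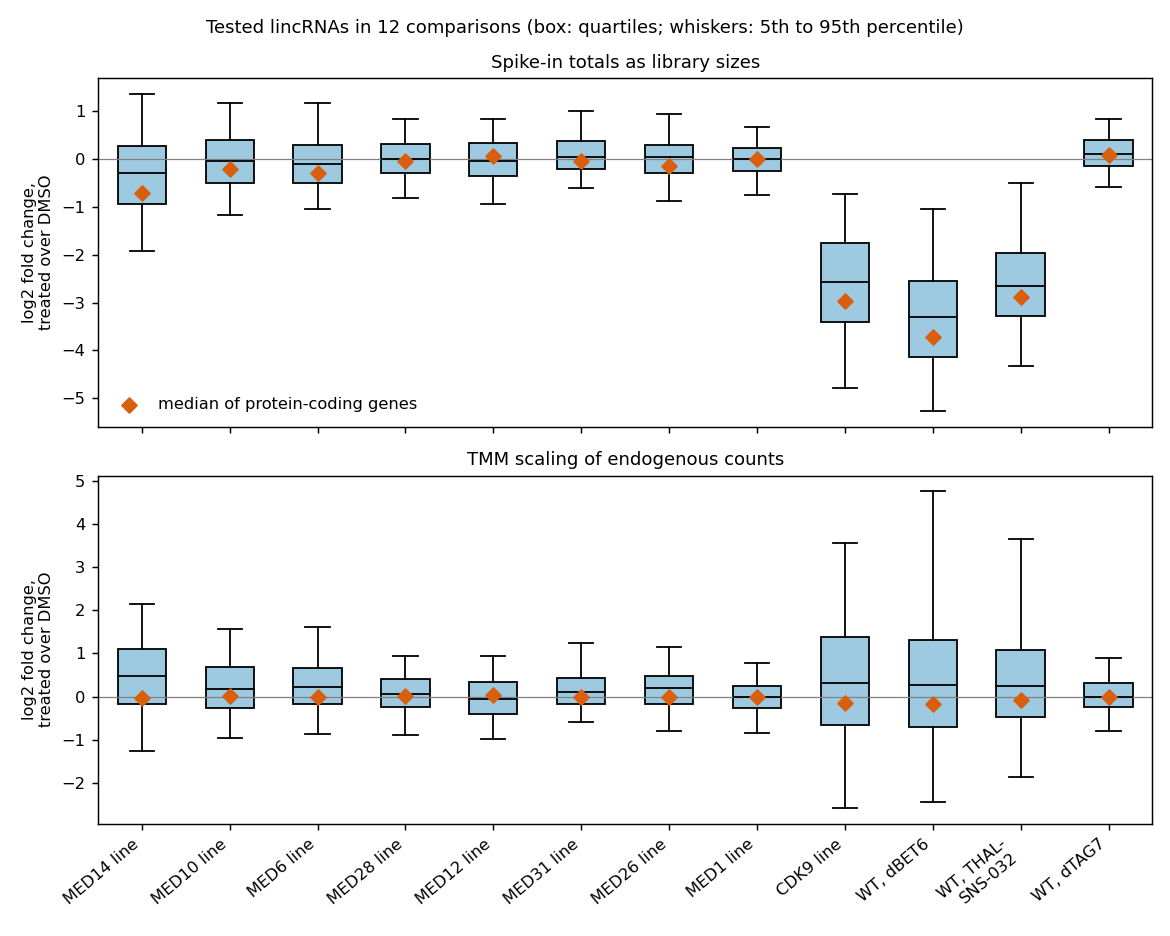
Log2 fold change (treated over DMSO) of tested lincRNAs in the 12 comparisons, spike-in scale above (288 lincRNAs) and TMM below (321): boxes span the quartiles, whiskers the 5th to 95th percentile, and diamonds mark the protein-coding median. On the spike-in scale the boxes of the CDK9 line, dBET6 and THAL-SNS-032 lie far below 0 (medians -2.57, -3.31 and -2.64) and the MED14 box straddles 0, while under TMM all 4 medians are above 0.

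Because low genes and high genes can differ in their fold changes and in how easily they are called, lincRNAs were compared with protein-coding genes in 7 bins of the DMSO level. The bins use the DMSO libraries that also enter the fold change, and no test was run on them. Averaged over the bins, the median after MED14 loss was -0.28 for lincRNAs and -0.54 for protein-coding genes, a difference of 0.27, and lincRNAs were above the protein-coding median in 6 of the 7 bins. At the same mix of levels 32.3% of protein-coding genes were called lower and 2.97% higher, beside 26.7% and 9.72% of lincRNAs. Under TMM 24.3% of lincRNAs and 11% of level-matched protein-coding genes were called higher.

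The MED14 difference varied with level. At 1 to 2 CPM the 44 lincRNAs had a median of 0.22 and the protein-coding genes -0.33, with 20.5% and 4.51% called higher. Of the lincRNAs averaging 1 to 2 CPM over all untreated libraries, 26 of 94 were tested. Those can have passed the count filter through treated libraries, so the filter itself could favour rises in this bin and in the average over bins. At 4 to 8 CPM the medians were -0.37 for 62 lincRNAs and -0.65 for protein-coding genes, with 29% and 37.6% called lower. At 16 to 32 CPM the 22 lincRNAs had the lower median, -1.08 against -0.70, with 72.7% and 68.1% called lower. In the 15 lincRNAs at 32 CPM or above the medians were -0.69 and -0.74, with 73.3% and 85.8% called lower.

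Level matching left smaller differences elsewhere. The mean of the bin medians was -2.52 for lincRNAs and -2.63 for protein-coding genes after CDK9 loss, -3.28 and -3.18 after dBET6, and -2.6 and -2.51 after THAL-SNS-032. After MED6 loss it was 0 for lincRNAs and -0.21 for protein-coding genes, after MED26 loss 0.07 and -0.08, after MED10 loss 0.02 and -0.03, and after MED12 loss 0.02 and 0.19. At matched levels 86% of protein-coding genes were lower after CDK9 loss, beside 83.7% of lincRNAs.

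**Figure D2:**
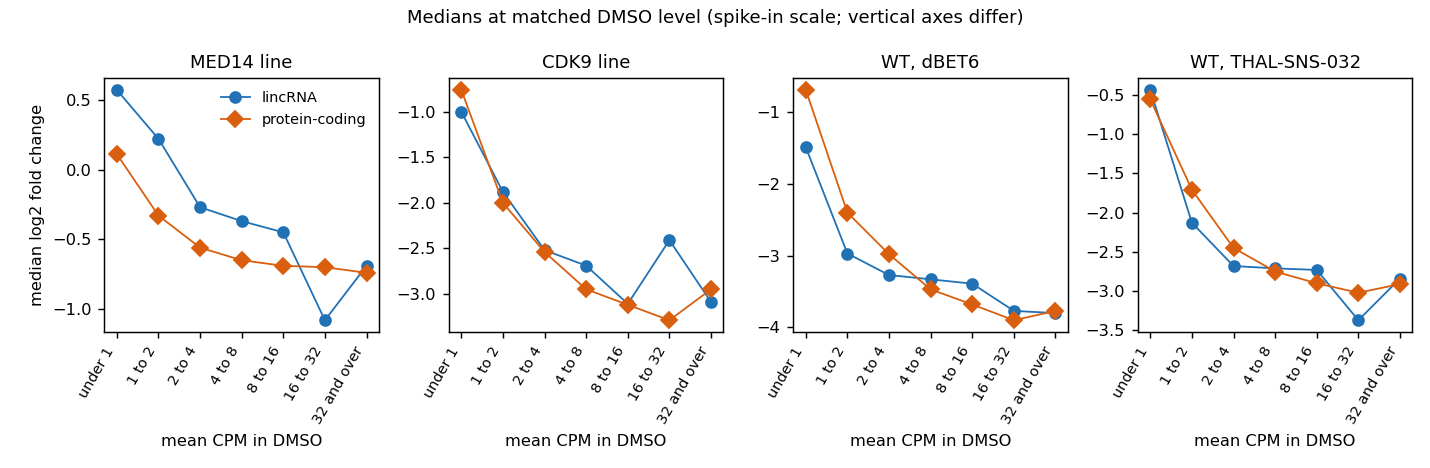
Median log2 fold change (spike-in scale, vertical axis, ranges differ between panels) against mean CPM in DMSO libraries (7 bins) for lincRNAs and protein-coding genes in the MED14 line, the CDK9 line and wild-type cells with dBET6 or THAL-SNS-032. In the MED14 panel the lincRNA points lie above the protein-coding points except at 16 to 32 CPM, where they are -1.08 and -0.70.

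Within the endogenous reads, the lincRNA share was larger after CDK9 or BET loss, and 2 genes made up most of that difference. The 374 lincRNAs took 1.21 to 1.30% of endogenous counts in the CDK9 line with dTAG7, 1.35 to 1.50% with dBET6 and 1.23 to 1.28% with THAL-SNS-032, against 0.591 to 1.01% over the untreated libraries of all lines. MALAT1 and NEAT1 together took 1.00 to 1.11% with dTAG7 and 0.462 to 0.536% with DMSO in the CDK9 line. They took 1.07 to 1.31% with dBET6 and 0.990 to 1.05% with THAL-SNS-032, against 0.434 to 0.488% in wild-type DMSO libraries. The other 372 took 0.189 to 0.214% with dTAG7 and 0.234 to 0.237% with DMSO in the CDK9 line. In wild-type cells these 372 took 0.199 to 0.277% with dBET6 and 0.211 to 0.246% with THAL-SNS-032, against 0.232 to 0.241% with DMSO. The MED14 line showed the other pattern: MALAT1 and NEAT1 took 0.487 to 0.551% with dTAG7 and 0.489 to 0.534% with DMSO, and the other 372 took 0.256 to 0.287% with dTAG7 and 0.234 to 0.242% with DMSO.

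Calls of a fall recurred most often over the Mediator lines in a pair of lincRNAs. AP001505.1, a transcript of a single exon at chr21:44978832-44979274 just downstream of FAM207A, and AL713998.1, at chr6:67887646-67889339 with no protein-coding gene close by, were called lower in 6 of the 8 Mediator lines, more than any other lincRNA. AP001505.1 was at 7.18, 11.6 and 10.1 CPM with dTAG7 and 52.7, 58 and 44.6 CPM with DMSO in the MED14 line, a log2 fold change of -2.49 ± 0.27 (SE, adjusted p = 1.42e-11, edgeR). The groups did not overlap, and the fall was also called under TMM at -1.81.

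AP001505.1 followed a graded order over the lines. With dTAG7 it was at 21.4, 15.8 and 15.3 CPM in the MED10 line, against 54.4, 53.2 and 42.7 CPM with DMSO (-1.5 ± 0.26, adjusted p = 1.15e-05). In the MED28 line it was at 25.4, 26.9 and 28.9 CPM with dTAG7, against 62.2, 62.9 and 55.5 CPM with DMSO (-1.15 ± 0.24, adjusted p = 0.00109). The MED6 line gave -1.01 ± 0.24 (adjusted p = 0.00267), and in these 3 lines no treated library reached a DMSO library. The MED12 and MED26 lines gave -0.95 ± 0.25 and -0.9 ± 0.23 (adjusted p = 0.0157 and 0.018, edgeR), but each call was lost in 3 of 6 leave-one-out fits, with adjusted p up to 0.188 without MED12 dTAG7 replicate C and 0.185 without MED26 dTAG7 replicate A. In the MED31 line the value was -0.74 ± 0.23 and not called (adjusted p = 0.0609). The MED1 line held 39, 48.5 and 51 CPM with dTAG7 and 45.6, 52.6 and 38.9 CPM with DMSO, and wild-type cells 42.1, 54.5 and 64.3 CPM with dTAG7, both overlapping their controls.

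AL713998.1 had the larger fold change of the pair. It was at 2.39, 3.88 and 2.29 CPM with dTAG7 and 19.6, 16.8 and 23.5 CPM with DMSO in the MED14 line (-2.88 ± 0.31, adjusted p = 5.88e-12, edgeR; TMM -2.2). The MED10, MED6 and MED28 lines gave -1.73 ± 0.31, -1.33 ± 0.27 and -1.22 ± 0.25, all called. The MED31 and MED26 lines gave -1.03 ± 0.29 and -0.98 ± 0.27 (adjusted p = 0.0309 and 0.032), calls lost in 5 and in 4 of 6 leave-one-out fits, with adjusted p up to 0.165 without MED31 dTAG7 replicate B and 0.431 without MED26 DMSO replicate B. After CDK9 loss AL713998.1 was at 3.91, 1.11 and 4.89 CPM with dTAG7 and 13.5, 19.7 and 20.6 CPM with DMSO, a change of -2.33 ± 0.29 that is less than the all-gene median of -2.93, and its TMM value there was 0.5 (adjusted p = 0.189).

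**Figure D3:**
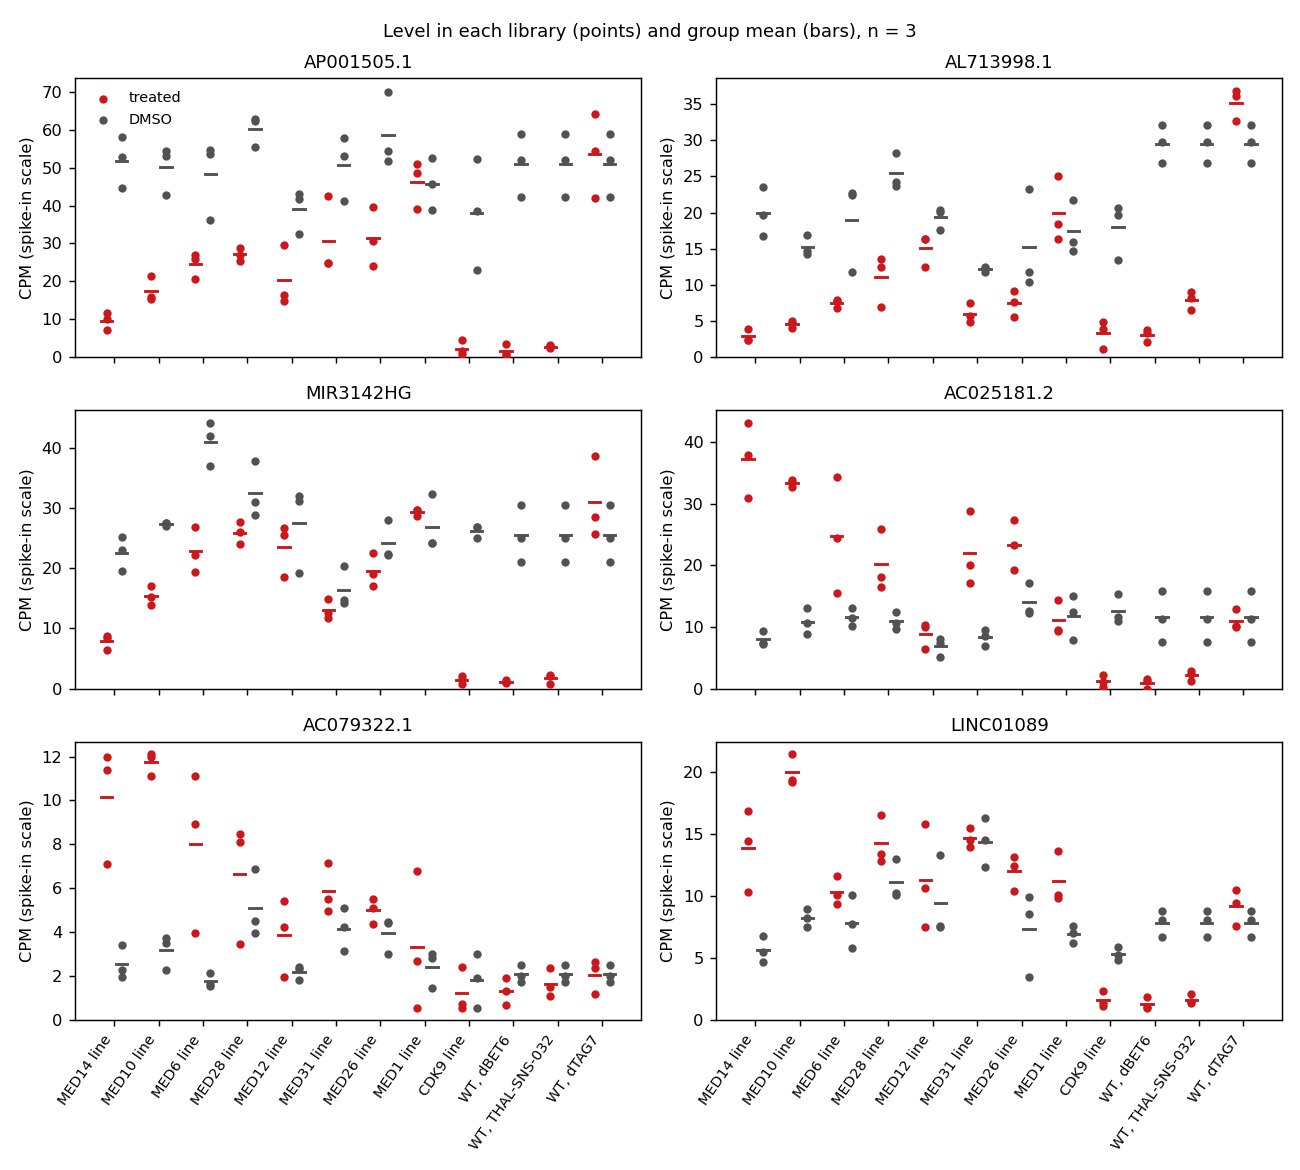
Level of 6 lincRNAs in CPM on the spike-in scale (vertical axis) in each library (points) and group mean (bars, n = 3), treated left of DMSO, in the 12 comparisons; the wild-type DMSO points are the same in the 3 wild-type columns. AP001505.1, AL713998.1 and MIR3142HG are lower with dTAG7 in the MED14 line, and AC025181.2, AC079322.1 and LINC01089 are higher there; AC025181.2 and LINC01089 are lower in the CDK9 line.

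The other large falls of the MED14 line lay mostly at clone-named loci. AF127936.1, at chr21:14761710-14763090, had 3.19, 1.94 and 3.27 CPM with dTAG7 and 25.6, 17.8 and 28.1 CPM with DMSO (-2.98 ± 0.31, adjusted p = 2.89e-12, edgeR). Its neighbour AF127936.2, 7847 bp away on the same strand, had 3.19, 5.17 and 3.59 CPM with dTAG7 and 15.8, 18.1 and 16.4 CPM with DMSO (-2.15 ± 0.3). In neither lincRNA did the groups overlap.

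AC012354.1, at chr2:44954664-44968762 near the homeobox gene SIX3, had 3.19, 3.23 and 3.92 CPM with dTAG7 and 12.1, 18.7 and 19.2 CPM with DMSO in the MED14 line (-2.25 ± 0.32, adjusted p = 1.27e-08, edgeR). LINC01833, 15465 bp from it on the other strand, fell by less, at 6.92, 6.47 and 4.9 CPM with dTAG7 and 12.4, 9.98 and 11.7 CPM with DMSO (-0.89 ± 0.29, adjusted p = 0.00678). AC019069.1, at chr2:74832655-74833987 overlapping the hexokinase gene HK2, had 2.66, 2.59 and 3.27 CPM with dTAG7 and 17, 15.9 and 18.8 CPM with DMSO (-2.56 ± 0.4, adjusted p = 1.39e-07). In the 3 lincRNAs every treated library was below every DMSO library.

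AC091563.1, downstream of DEPTOR, an inhibitor of mTOR, had 1.06, 0.647 and 1.63 CPM with dTAG7 and 6.78, 6.55 and 8.21 CPM with DMSO in the MED14 line (-2.54 ± 0.49), and also fell in the MED10 and MED6 lines (-1.6 ± 0.42 and -1.9 ± 0.4). AL392172.1, at chr1:222815022-222837384, had 1.6, 2.59 and 4.57 CPM with dTAG7 and 14.3, 8.1 and 11.7 CPM with DMSO (-1.95 ± 0.37), and Z69706.1, downstream of the splicing factor gene LUC7L, 3.19, 1.94 and 1.31 CPM with dTAG7 and 7.53, 9.98 and 7.04 CPM with DMSO (-1.85 ± 0.39). MNX1-AS1, divergent from the homeobox gene MNX1 and shown above with its promoter, had 2.66, 0.647 and 0.327 CPM with dTAG7 and 4.52, 3.74 and 7.43 CPM with DMSO (-1.83 ± 0.52, adjusted p = 0.00168, edgeR), without overlap, though under TMM its -1.15 was not called (adjusted p = 0.0901).

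A group of lincRNAs rose after MED14 loss while most genes fell. AC025181.2, at chr5:32174471-32175272 and divergent from GOLPH3, a Golgi membrane protein gene, had 43.1, 31 and 37.9 CPM with dTAG7 and 7.16, 7.48 and 9.38 CPM with DMSO in the MED14 line (2.25 ± 0.27, adjusted p = 1.81e-10, edgeR). The lowest treated library was above the highest DMSO library by a wide margin. It also rose in the MED10 line, to 33.9, 32.8 and 33.5 CPM with dTAG7, against 13.1, 10.6 and 8.92 CPM with DMSO (1.65 ± 0.28, adjusted p = 6.77e-06), and in the MED31 line, to 28.9, 17.2 and 20 CPM with dTAG7, against 9.5, 6.91 and 8.48 CPM with DMSO (1.41 ± 0.29, adjusted p = 0.00228). In the MED6 line the rise of 1.08 ± 0.29 was lost without dTAG7 replicate C (adjusted p = 0.0534), and the MED28 value of 0.87 ± 0.3 was not called (adjusted p = 0.0774).

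CDK9 loss took AC025181.2 the other way. It was at 0.29, 2.22 and 1.05 CPM with dTAG7 and 15.4, 11.7 and 10.9 CPM with DMSO in the CDK9 line (-3.85 ± 0.48, adjusted p = 6.94e-11, edgeR). With dBET6 it was at 1.17, 0 and 1.63 CPM and with THAL-SNS-032 at 1.2, 2.81 and 2.37 CPM, against 11.3, 15.8 and 7.63 CPM in wild-type DMSO libraries. Of the 28 lincRNAs higher in the MED14 line, 17 were lower, 1 was higher and 10 were called in neither direction in the CDK9 line. This stands beside 83.7% of tested lincRNAs and 95.3% of all genes lower after CDK9 loss. Of 137 protein-coding genes higher in the MED14 line, 2 were higher in the CDK9 line.

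AC079322.1, at chr15:72465128-72466262, had 12, 7.11 and 11.4 CPM with dTAG7 and 2.26, 3.43 and 1.95 CPM with DMSO in the MED14 line (2.01 ± 0.39), 11.1, 12 and 12.1 CPM with dTAG7 and 3.75, 2.29 and 3.49 CPM with DMSO in the MED10 line (1.88 ± 0.41), and 8.93, 11.1 and 3.97 CPM with dTAG7 and 1.54, 2.13 and 1.65 CPM with DMSO in the MED6 line (2.17 ± 0.48). It was the lincRNA called higher in exactly 3 Mediator lines, with no overlap in any of them, and in the CDK9 line its -0.73 ± 0.64 was not called. AC048341.1, downstream of MON2, a trafficking gene, had 13.3, 12.9 and 16 CPM with dTAG7 and 2.64, 4.05 and 5.08 CPM with DMSO in the MED14 line (1.84 ± 0.35, adjusted p = 8e-06, edgeR). MON2 itself stood at -0.06 there (adjusted p = 0.804). AC048341.1 was also called in the MED10, MED31 and MED26 lines, calls lost in 1, 5 and 2 of 6 leave-one-out fits.

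LINC01089, whose promoter was shown above and which diverges from SETD1B, a histone H3 lysine methyltransferase gene, had 16.8, 10.3 and 14.4 CPM with dTAG7 and 6.78, 4.68 and 5.47 CPM with DMSO in the MED14 line (1.35 ± 0.25, adjusted p = 5.38e-06, edgeR). In the MED10 line it had 19.2, 21.4 and 19.3 CPM with dTAG7 and 7.5, 8.26 and 8.92 CPM with DMSO (1.25 ± 0.24, adjusted p = 8.46e-05), again without overlap. Of the 50-base words in its last 300 bases, 9.12% also occur in RHOF transcripts on the same strand, so a part of its reads could be shared. In the CDK9 line it fell on the spike-in scale (-1.5 ± 0.37, adjusted p = 0.000232) and was called higher under TMM (1.32, adjusted p = 0.00501).

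The remaining rises named by size in the MED14 line were of low lincRNAs. AP003469.4 had 6.12, 3.88 and 8.82 CPM with dTAG7 and 0.753, 0.623 and 1.17 CPM with DMSO (2.91 ± 0.59), AC009812.4 7.98, 7.11 and 11.4 CPM with dTAG7 and 2.26, 1.25 and 1.17 CPM with DMSO (2.51 ± 0.48), and AL355001.2, divergent from ZMYM5, 5.05, 5.17 and 6.53 CPM with dTAG7 and 0.377, 2.18 and 1.17 CPM with DMSO (2.07 ± 0.48). AC064807.4, LINC00926 and AC087623.2 rose by 1.71 ± 0.51, 1.36 ± 0.47 and 1.32 ± 0.37. In the 6 lincRNAs the groups did not overlap. LincRNAs this low in DMSO can have passed the count filter through the treated libraries in which they were high.

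**Figure D4:**
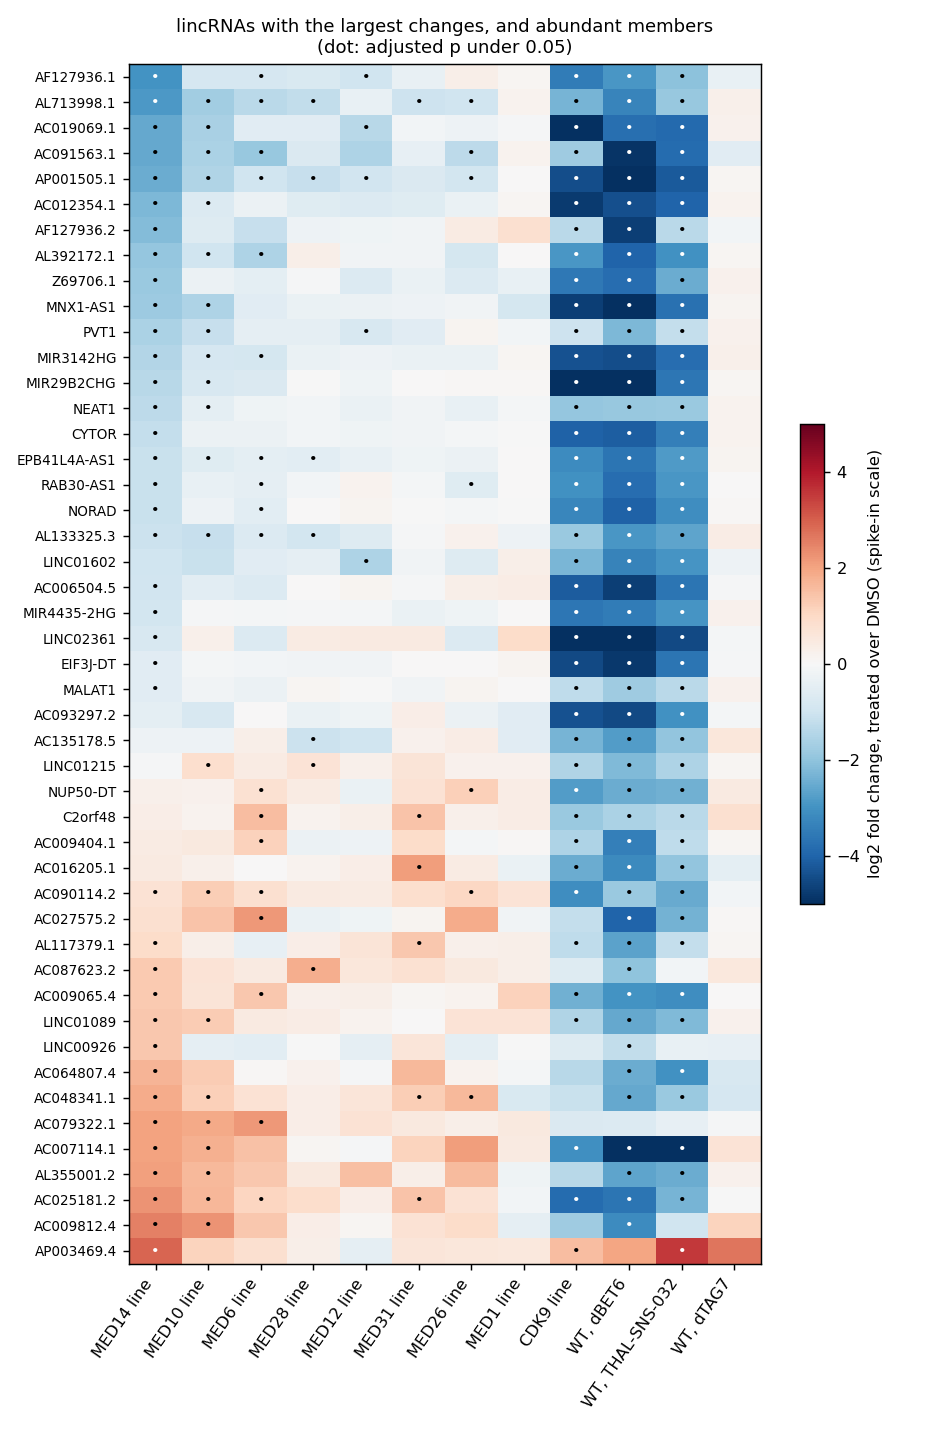
Log2 fold change (treated over DMSO, spike-in scale, colour) of 47 lincRNAs, rows ordered by the MED14 line, in 12 comparisons (columns), with a dot where the adjusted p was under 0.05. The top rows fall in the MED14 line and in parts of the MED10, MED6 and MED28 lines, the bottom rows rise in the same lines, and nearly all rows are blue in the CDK9 line, dBET6 and THAL-SNS-032; the MED1 line and wild-type dTAG7 columns hold no dot.

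Counting over the 8 Mediator lines, 207 of the 288 tested lincRNAs were lower in no line, 55 in 1, 14 in 2, 7 in 3, 3 in 4 and 2 in 6. AC091563.1, AL133325.3 and EPB41L4A-AS1 were lower in 4 lines. For rises the counts were 248 in no line, 22 in 1, 14 in 2, 1 in 3 and 3 in 4, the last being AC025181.2, AC048341.1 and AC090114.2. The same count was not made over all genes, so whether such recurrence is unusual was not tested. Of the 77 lower after MED14 loss, 17 were also lower after MED10 loss, which is 22.1% of the MED14 list and 89.5% of the 19 of the MED10 list. For rises 11 were shared, 39.3% of 28 and 64.7% of 17. For protein-coding genes the shared falls were 29.8% of the MED14 list and 98% of the MED10 list, and the shared rises 59.9% and 28.6%. All 15 lincRNAs lower after MED6 loss were lower after MED14 loss, 19.5% of the MED14 list, and for protein-coding genes the shared falls were 96.8% of the MED6 list and 28.7% of the MED14 list. With the CDK9 line 74 falls were shared, 96.1% of the MED14 list and 30.7% of the CDK9 list, where 83.7% of tested lincRNAs and 95.3% of all genes were lower after CDK9 loss. For protein-coding genes 99.2% of the MED14 list and 70% of the CDK9 list were shared.

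Position relative to protein-coding genes was compared next, in 4 groups taken from GENCODE 29. A lincRNA was divergent where a protein-coding start on the other strand lay within 2000 bp upstream of its own start (98 lincRNAs, 78 tested), downstream where it began within 5000 bp after a gene on the same strand (38 and 29), overlapping where it overlapped a gene in another way (64 and 49), and apart otherwise (174 and 132). After MED14 loss 12 divergent lincRNAs were lower and 12 higher (15.4% each), against 13 and 2 downstream (44.8% and 6.9%), 12 and 2 overlapping (24.5% and 4.08%) and 40 and 12 apart (30.3% and 9.09%), beside 63.3% and 1.7% of all genes. The medians were -0.24, -0.40, -0.26 and -0.34, and the median untreated levels lay between 4.37 and 5.25 CPM in all 4. Under TMM 1 divergent lincRNA was lower and 26 were higher of 85 tested, 4 and 8 of 32 downstream, 2 and 8 of 53 overlapping and 14 and 36 of 151 apart, beside 16.6% and 13.4% of all genes. After MED10 loss 3 divergent lincRNAs were lower and 8 higher, with a median of 0.19, beside 19% and 2.71% of all genes. The other groups had 3 lower and 1 higher downstream, 4 and 1 overlapping and 9 and 7 apart, with medians of -0.3, -0.06 and -0.08. CDK9 loss lowered 87.2% of the divergent, 86.2% of the downstream, 93.9% of the overlapping and 77.3% of the lincRNAs apart, beside 95.3% of all genes, and the 4 that rose were all apart.

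Each divergent lincRNA was set beside its protein-coding partner. Over the 78 pairs in the MED14 line the lincRNA median was -0.24 and the partner median -0.77, and 62 partners were lower and 3 higher. Of all genes 63.3% were lower and 1.7% higher, with a median of -0.69. Of protein-coding genes 68.3% were lower and 1.24% higher, with a median of -0.71. The correlation of the fold changes across pairs, which share the same 6 libraries, was -0.01 (Pearson) and 0.02 (Spearman). In 7 pairs both were lower and in 12 the calls were opposite, 11 of these with the lincRNA higher and the partner lower. Since 12 lincRNAs were higher and 62 of 78 partners lower, these margins alone bring most of the higher lincRNAs into such a pair, and nothing about the pairs is read from the count. That count depends on the scale: under TMM the lincRNA was still called higher in the same 11 pairs, but the partner was lower in 2 and higher in 1, so 2 pairs were opposite there. None of the 7 pairs lower together was called lower in both genes under TMM. After CDK9 loss 77 of 78 partners and 68 lincRNAs were lower, 67 pairs together and 0 opposite, beside 95.3% of all genes lower, and the Pearson correlation across pairs was 0.02. In the other Mediator lines it lay between -0.23 (MED26) and 0.25 (MED28), and with dBET6 and THAL-SNS-032 it was 0.05 and 0.1.

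AC007114.1 and AKAP1, which anchors protein kinase A at mitochondria, were opposite on both scales. AC007114.1, at chr17:57078298-57085024, had 3.19, 4.53 and 4.57 CPM with dTAG7 and 2.26, 0 and 0.782 CPM with DMSO in the MED14 line (2.01 ± 0.62, adjusted p = 0.00433, edgeR), a call lost without DMSO replicate B (adjusted p = 0.0619). AKAP1 had 26.9, 28.5 and 31.7 CPM with dTAG7 and 119, 122 and 129 CPM with DMSO (-2.09 ± 0.14, adjusted p = 5.73e-19; TMM -1.4). The second such pair was AC144652.1, at a log2 fold change of 1 (TMM 1.69), and INSIG1, a regulator of sterol synthesis, at -0.98 ± 0.15 (TMM -0.3).

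GOLPH3, the partner of AC025181.2, had 51.3, 52.4 and 40.5 CPM with dTAG7 and 100, 107 and 104 CPM with DMSO (-1.12 ± 0.26, adjusted p = 0.000162, edgeR), and under TMM its -0.43 was not called (adjusted p = 0.118). SETD1B, the partner of LINC01089, had 57.5, 56.9 and 62.7 CPM with dTAG7 and 96.8, 104 and 92.6 CPM with DMSO (-0.73 ± 0.18; TMM -0.04). The other pairs with a higher lincRNA were AL139384.1 with ATP11A, AC087623.2 with NSD3, AC004825.2 with PCNX1, APTR with RSBN1L, SRP14-AS1 with SRP14, AC110769.2 with ACTR3 and YTHDF3-AS1 with YTHDF3, in which the lincRNAs rose by 0.9 to 1.34 and the partners stood at -0.78 to -0.5. RAB30-AS1 was the reverse: it had 7.18, 13.6 and 8.49 CPM with dTAG7 and 18.5, 21.5 and 18.8 CPM with DMSO (-1.12 ± 0.19, adjusted p = 1.57e-06), while RAB30 rose by 0.92 ± 0.39 (adjusted p = 0.0368); under TMM the -0.44 of RAB30-AS1 was not called.

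EIF3J-DT and EIF3J, a translation initiation factor gene, fell together on the spike-in scale. EIF3J-DT, at chr15:44527257-44536923, had 13.8, 16.2 and 17 CPM with dTAG7 and 26.4, 24 and 19.2 CPM with DMSO in the MED14 line (-0.58 ± 0.22, adjusted p = 0.0167, edgeR). That call was lost in 2 of 6 leave-one-out fits, with an adjusted p of 0.0976 without dTAG7 replicate A, and 27.9% of the 50-base words in its last 300 bases occur on the other strand of CTDSPL2 transcripts; whether the counting used the strand is not given in the sources used here. BAIAP2-DT had 9.84, 10.3 and 11.8 CPM with dTAG7 and 27.9, 30.2 and 27.8 CPM with DMSO (-1.42 ± 0.2, adjusted p = 1.33e-08), and BAIAP2 stood at -0.59 ± 0.18.

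**Figure D5:**
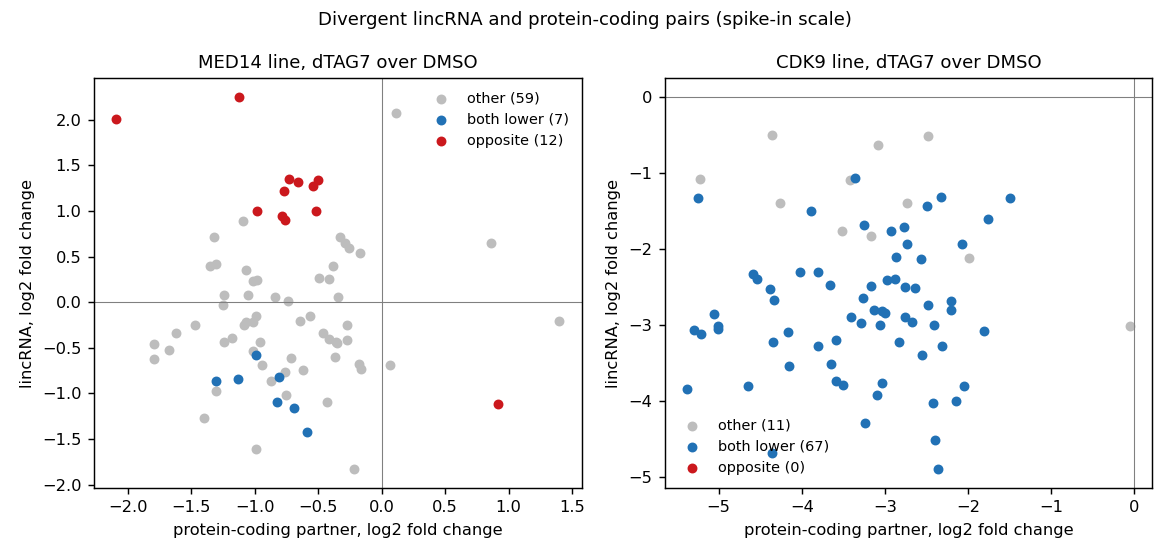
Log2 fold change of the lincRNA (vertical axis) against that of its divergent protein-coding partner (horizontal axis), dTAG7 over DMSO on the spike-in scale, 78 pairs in the MED14 line (left) and in the CDK9 line (right), coloured by the calls in both genes. On the left 12 pairs are opposite and 7 lower together; on the right 67 are lower together and 0 opposite.

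LincRNAs downstream of a gene were paired with that gene in the same way. Over 28 pairs in the MED14 line 13 lincRNAs and 18 partners were lower, 9 of them as pairs, and 2 pairs were opposite, beside 63.3% of all genes lower and 1.7% higher. With 18 of 28 partners lower, these margins alone bring most of the lower lincRNAs into such a pair. Nothing about the downstream pairs is read from the count. The Pearson correlation across pairs was 0.35, beside 0.42 over 37 overlapping pairs and 0.33 over 99 pairs of a lincRNA apart and its nearest gene. FAM207A, upstream of AP001505.1, stood at -1.28 ± 0.19 and DEPTOR, upstream of AC091563.1, at -2.31 ± 0.27. Reads that run on from the upstream gene were not told apart from the lincRNA's own.

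Abundant lincRNAs with known nuclear or RNA-binding roles fell after MED14 loss. Of CYTOR, EPB41L4A-AS1, MALAT1, NEAT1 and NORAD, 5 of 5 were lower (4 of 5 under TMM), with a median of -1.13, beside 63.3% of all genes lower and a median of -0.69. Under TMM 16.6% of all genes were lower after MED14 loss. After CDK9 loss, dBET6 and THAL-SNS-032 5 of 5 were lower too, with medians of -3.16, -3.64 and -2.85. All genes were at 95.3%, 97.1% and 96.2% lower in these comparisons, with medians of -2.93, -3.67 and -2.86. Under TMM 2 of the 5 were lower and 2 higher after CDK9 loss and likewise with dBET6, and 1 was lower and 2 higher with THAL-SNS-032. All genes under TMM were lower in 27%, 23.2% and 16% and higher in 21.1%, 18.2% and 14.1%, in the same order. NEAT1, the scaffold of paraspeckles at chr11:65422774-65445540, had 233, 250 and 307 CPM with dTAG7 and 672, 671 and 620 CPM with DMSO in the MED14 line (-1.31 ± 0.18, adjusted p = 3.75e-09, edgeR; TMM -0.63). MALAT1, a nuclear speckle RNA at chr11:65497688-65506516, had 3380, 3600 and 3790 CPM with dTAG7 and 4960, 5790 and 5220 CPM with DMSO (-0.57 ± 0.12, adjusted p = 3.65e-05), which under TMM was 0.12 and not called. In both the groups did not overlap.

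After CDK9 loss MALAT1 and NEAT1 fell by less than the all-gene median of -2.93. MALAT1 had 2420, 2280 and 2450 CPM with dTAG7 and 5330, 5760 and 6030 CPM with DMSO in the CDK9 line, a log2 fold change of -1.26 ± 0.12 on the spike-in scale and 1.56 under TMM. NEAT1 had 168, 227 and 182 CPM with dTAG7 and 626, 761 and 773 CPM with DMSO, -1.92 ± 0.18 and 0.89 under TMM. With dBET6 MALAT1 had 1470, 1860 and 1600 CPM and with THAL-SNS-032 2370, 2000 and 2380 CPM, against 5760, 6390 and 4890 CPM in wild-type DMSO libraries. NORAD, a binder of PUMILIO proteins at chr20:36045622-36050960, fell with the bulk: 22.3, 28.3 and 32.8 CPM with dTAG7 and 281, 246 and 260 CPM with DMSO in the CDK9 line (-3.27 ± 0.19, adjusted p = 4.47e-24, edgeR).

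In the MED14 line NORAD had 120, 120 and 136 CPM with dTAG7 and 249, 280 and 288 CPM with DMSO (-1.12 ± 0.16, adjusted p = 3.74e-08, edgeR). CYTOR, at chr2:87454781-87636740, had 67.6, 53 and 68.9 CPM with dTAG7 and 136, 153 and 150 CPM with DMSO (-1.19 ± 0.17), but 31.4% of the words in its last 300 bases are also in MIR4435-2HG transcripts, so the counts of these 2 genes are uncertain. EPB41L4A-AS1, a host of a small nucleolar RNA at chr5:112160526-112164276, had 53.7, 58.8 and 66.3 CPM with dTAG7 and 116, 139 and 138 CPM with DMSO (-1.13 ± 0.17). It also fell in the MED10 line, at 96.3, 106 and 101 CPM with dTAG7 and 141, 165 and 152 CPM with DMSO (-0.6 ± 0.16, adjusted p = 0.00506), and its falls in the MED6 and MED28 lines were lost in 3 and 6 of 6 leave-one-out fits. Of its end, 32.3% lies on the other strand of EPB41L4A transcripts.

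LincRNAs that host microRNAs were followed as a list. Of the 9 such lincRNAs, 7 were lower and 0 higher after MED14 loss, with a median of -1.39, beside 63.3% of all genes lower, 1.7% higher and a median of -0.69. Each of CDK9 loss, dBET6 and THAL-SNS-032 gave 8 lower and 1 higher (88.9% and 11.1%), with medians of -2.96, -3.49 and -2.83. All genes were lower in 95.3%, 97.1% and 96.2%, with medians of -2.93, -3.67 and -2.86, so the share of hosts called lower was no larger than that of all genes. Under TMM 1 was lower and 1 higher after MED14 loss, 3 and 1 after CDK9 loss, 2 and 1 with dBET6 and 1 and 1 with THAL-SNS-032. All genes under TMM were lower in 16.6%, 27%, 23.2% and 16% and higher in 13.4%, 21.1%, 18.2% and 14.1%, in the same order. MIR3142HG, the host of miR-146a, whose product dampens NF-κB signalling, had 8.78, 6.47 and 8.49 CPM with dTAG7 and 19.6, 25.2 and 23.1 CPM with DMSO in the MED14 line (-1.47 ± 0.22, adjusted p = 4.87e-08, edgeR; TMM -0.78). It had 15.2, 17 and 13.9 CPM with dTAG7 and 27.5, 27.5 and 27.1 CPM with DMSO in the MED10 line (-0.85 ± 0.21) and 19.4, 22.2 and 26.9 CPM with dTAG7 and 37, 44.2 and 42 CPM with DMSO in the MED6 line (-0.87 ± 0.18). No treated library overlapped DMSO in the 3 lines. After CDK9 loss it had 0.724, 1.66 and 2.09 CPM with dTAG7 and 26.9, 25.1 and 26.9 CPM with DMSO (-4.36 ± 0.3, adjusted p = 7.97e-21).

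MIR29B2CHG, the host of the miR-29 pair shown above, lies downstream of CD34, a blood progenitor marker that itself stood at -1.52 in the MED14 line. The host had 2.39, 4.53 and 5.55 CPM with dTAG7 and 12.4, 10.6 and 8.6 CPM with DMSO there (-1.39 ± 0.32, adjusted p = 0.000185, edgeR), and under TMM its -0.72 was not called (adjusted p = 0.0824). In the CDK9 line it had 0, 0.555 and 0 CPM with dTAG7 and 9.61, 10.1 and 8.98 CPM with DMSO, which was 1 count and 53 counts, a DMSO to dTAG7 ratio of 110 (18.9 to 4420, exact 95% interval). With dBET6 it had 0, 0 and 0.543 CPM, against 10.9, 16.3 and 12.9 CPM in wild-type DMSO libraries, a DMSO to dBET6 ratio of 86 (23.1 to 722). These intervals cover counting error only. With THAL-SNS-032 it had 0.902, 0.75 and 1.69 CPM (-3.6 ± 0.39, adjusted p = 5.02e-13).

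MIR155HG, the host of miR-155, a microRNA of B and myeloid cell activation, was lower in the MED14 line at -1.28 ± 0.48 (adjusted p = 0.0161, edgeR), a call lost in 2 of 6 leave-one-out fits with an adjusted p of 0.0606 without dTAG7 replicate B. In the CDK9 line it had 1.16, 1.11 and 0.349 CPM with dTAG7 and 7.69, 8 and 5.61 CPM with DMSO (-2.81 ± 0.55). MIR181A1HG had 2.39, 1.94 and 2.94 CPM with dTAG7 and 5.27, 6.86 and 8.21 CPM with DMSO in the MED14 line (-1.42 ± 0.37, adjusted p = 0.000776). MIR99AHG, at -0.38 ± 0.58, was not called there.

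LINC00461, the host of a miR-9 copy best known from brain, went the other way. It had 2.32, 3.88 and 3.49 CPM with dTAG7 and 1.92, 1.07 and 0.374 CPM with DMSO in the CDK9 line (1.66 ± 0.67, adjusted p = 0.0177, edgeR), a call lost without DMSO replicate C (adjusted p = 0.172). With dBET6 it had 2.81, 1.34 and 2.44 CPM, against 0.837, 0 and 0 CPM in wild-type DMSO libraries (2.64 ± 0.83, adjusted p = 0.00237). The groups did not overlap in either comparison, but every value rests on a few reads.

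Among the lincRNAs known from blood cells and leukaemia 5 of 6 tested were lower and 1, MEG3, was higher after MED14 loss, beside 63.3% and 1.7% of all genes. Under TMM 3 were lower and 1 higher, beside 16.6% and 13.4% of all genes. LUNAR1 could not be tested, and 7 of the 18 listed names were among the lincRNAs described here. CYTOR is also on the list of abundant lincRNAs, and MIR155HG and MIR4435-2HG are on that of microRNA hosts. The counts of CYTOR and MIR4435-2HG are uncertain, as given above. PVT1, which neighbours MYC, had 8.25, 2.59 and 7.51 CPM with dTAG7 and 22.2, 20.9 and 17.6 CPM with DMSO in the MED14 line (-1.57 ± 0.23, adjusted p = 3.46e-08, edgeR), and fell in the MED10 line to 12, 8.19 and 9.63 CPM with dTAG7, against 19.4, 20.6 and 26.8 CPM with DMSO (-1.16 ± 0.23, adjusted p = 9.64e-05). In the CDK9 line it had 8.25, 6.66 and 8.38 CPM with dTAG7 and 16.3, 16 and 16.8 CPM with DMSO (-1.04 ± 0.24, adjusted p = 5.4e-05), while under TMM it was 1.8. MEG3 stood at 1.45 ± 0.63 in the MED14 line, a call lost in 4 of 6 leave-one-out fits. Of 10 listed p53-regulated lincRNAs, 3 were among those described here, NEAT1, PURPL and TP53TG1. NEAT1 alone was lower and 0 were higher after MED14 loss, beside 63.3% and 1.7% of all genes. Under TMM 1 of the 3 was lower and 1 higher there, beside 16.6% and 13.4% of all genes. PURPL, with 6.95, 11.1 and 11.5 CPM with dTAG7 and 4.81, 10.1 and 4.12 CPM with DMSO in the CDK9 line (0.54 ± 0.36, adjusted p = 0.145, edgeR), was not called after CDK9 loss, dBET6 or THAL-SNS-032, whereas under TMM its values were 3.35, 3.17 and 2.54.

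Class of name and exon number were set beside the MED14 calls as descriptions. LincRNAs with a LINC number had 8 lower and 3 higher of 43 tested, clone-named ones 39 and 21 of 176, and those with another name 30 and 4 of 69 (43.5% lower), whose median untreated level was higher, 6.16 CPM against 4.76 and 4.27. All genes were lower in 63.3% and higher in 1.7%. Under TMM the counts were 0 lower and 10 higher of 49, 13 and 58 of 199 and 8 and 10 of 73, beside 16.6% and 13.4% of all genes. Transcripts of 1 exon had 30 lower and 16 higher of 141, and those of 2 or more exons 47 and 12 of 147; under TMM the counts were 8 and 43 of 152, and 13 and 35 of 169.

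In the smaller Mediator responses most calls rested on particular libraries. NUP50-DT, divergent from the nucleoporin gene NUP50, had 12.4, 13.9 and 16.5 CPM with dTAG7 and 5.92, 5.17 and 7.07 CPM with DMSO in the MED26 line (1.2 ± 0.29, adjusted p = 0.0112, edgeR), lost in 2 of 6 leave-one-out fits with an adjusted p of 0.074 without DMSO replicate B. C2orf48 had 11.9, 19.4 and 8.38 CPM with dTAG7 and 2.31, 5.32 and 5.36 CPM with DMSO in the MED6 line (1.53 ± 0.37, adjusted p = 0.00254), which held in all 6 such fits, and 8.67, 11.7 and 9.3 CPM with dTAG7 and 2.26, 3.64 and 5.09 CPM with DMSO in the MED31 line (1.42 ± 0.38, adjusted p = 0.0211), lost in 3. AC090114.2 had 12.9, 17.6 and 14.3 CPM with dTAG7 and 6.87, 5.05 and 6.98 CPM with DMSO in the MED10 line (1.22 ± 0.29, adjusted p = 0.00103), and its calls in the MED14, MED6 and MED26 lines were lost in 2, 6 and 4 of 6 fits. The groups did not overlap in these comparisons of NUP50-DT, C2orf48 and AC090114.2.

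AL117379.1 had 12, 15.8 and 15.7 CPM with dTAG7 and 7.69, 3.27 and 6.36 CPM with DMSO in the MED31 line (1.36 ± 0.33, adjusted p = 0.0106, edgeR), lost without DMSO replicate B (adjusted p = 0.151). AL133325.3, near NKX2-2, had 23.2, 16.2 and 18.3 CPM with dTAG7 and 43.5, 31.1 and 34.4 CPM with DMSO in the MED28 line (-0.92 ± 0.23, adjusted p = 0.00748) and 6.38, 9.7 and 12.1 CPM with dTAG7 and 19.2, 20 and 19.2 CPM with DMSO in the MED14 line (-1.08 ± 0.26). ELFN1-AS1 was lower in the MED10, MED28 and MED12 lines on few reads: in the MED28 line it had 1 count with dTAG7 and 12 with DMSO, a DMSO to dTAG7 ratio of 15.1 (2.23 to 646). In the MED12 line AF127936.1 stood at -1.01 ± 0.29, LINC01602 at -1.53 ± 0.44 and PVT1 at -0.81 ± 0.22, and each of these calls was lost in at least 3 of 6 leave-one-out fits.

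The deepest falls of all came with CDK9 or BET loss and left some lincRNAs near 0. LINC02361, shown above with its promoter, had 0.29, 0 and 0 CPM with dTAG7 and 10.6, 8.54 and 7.11 CPM with DMSO in the CDK9 line, a DMSO to dTAG7 ratio of 47.6 (12.5 to 405). EIF3J-DT had 1.01, 1.11 and 0.698 CPM with dTAG7 and 14.4, 33.6 and 18.7 CPM with DMSO (-4.52 ± 0.35, adjusted p = 2.32e-18, edgeR), and AC012354.1 0.579, 0 and 1.75 CPM with dTAG7 and 30.8, 22.9 and 18 CPM with DMSO (-4.78 ± 0.39, adjusted p = 2.05e-17). AC019069.1 was at 2 counts with dTAG7 and 83 with DMSO, a ratio of 86 (23.1 to 722), and MNX1-AS1 had a ratio of 33.1 (8.46 to 285). In each of these the groups were far apart.

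AP001505.1, the lincRNA of 6 Mediator lines, had 1.45, 4.44 and 0.698 CPM with dTAG7 and 23.1, 52.3 and 38.5 CPM with DMSO in the CDK9 line (-4.45 ± 0.37, adjusted p = 2.77e-17, edgeR; TMM -1.64). With dBET6 it had 0.703, 0.572 and 3.53 CPM and with THAL-SNS-032 2.41, 2.81 and 3.05 CPM, against 51.9, 59 and 42.2 CPM in wild-type DMSO libraries (-5.08 ± 0.35 and -4.18 ± 0.32). It was among the 10 falls named by size in all 3 comparisons and after MED14 loss.

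With dBET6 LINC02001 had 0, 0.191 and 0.271 CPM and wild-type DMSO libraries 9.21, 22.8 and 8.44 CPM, which was 2 counts and 82 counts. TRAM2-AS1 stood at -5.24 ± 0.56 and AC027031.2 at -5.06 ± 0.3. With THAL-SNS-032 AC010536.1, at chr16:87693537-87696147, had no count in any library, against 5.86, 6.42 and 3.62 CPM in wild-type DMSO libraries. That is 0 counts and 34 counts, at least 20-fold lower when the treated group is set to a floor of 3 counts over the group. HCG11 had 0, 0.75 and 1.36 CPM with THAL-SNS-032, against 15.1, 14 and 14.5 CPM with DMSO (-4.31 ± 0.38, adjusted p = 4.69e-16, edgeR).

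Very few lincRNAs rose after CDK9 or BET loss, and those low in DMSO can have passed the count filter through treated libraries. AC007529.1, at chr12:16693800-16695977, had 6.56, 2.1 and 10 CPM with dBET6 and 0.418, 1.75 and 0 CPM with DMSO (3.2 ± 0.76, adjusted p = 9.61e-05, edgeR). LINC00971, at chr3:84638406-84881679, had 5.86, 1.72 and 9.23 CPM with dBET6 and 0.837, 0.584 and 1.61 CPM with DMSO (2.29 ± 0.67, adjusted p = 0.00113), and MEG3 4.22, 2.1 and 5.7 CPM with dBET6 and 0.837, 1.75 and 1.21 CPM with DMSO (1.63 ± 0.62, adjusted p = 0.0116), lost in 2 of 6 leave-one-out fits. The rises of LINC00971 and AC007529.1 in the CDK9 line (1.96 and 1.74) were lost in 4 and 5 of 6 fits. AP003469.4 had 3.33, 3.88 and 4.54 CPM with dTAG7 and 0.961, 2.67 and 0.374 CPM with DMSO in the CDK9 line (1.55 ± 0.65, adjusted p = 0.0222), lost without DMSO replicate C (adjusted p = 0.233). It was the only lincRNA called higher in both the MED14 and the CDK9 line. With THAL-SNS-032 it had 3.91, 1.31 and 2.03 CPM, against 0, 0.584 and 0 CPM in wild-type DMSO libraries, and wild-type cells given dTAG7 alone stood at 2.68 ± 1.22 (adjusted p = 0.992).

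The differences between lines were tested in the same model. The dTAG7 effect differed among the 8 Mediator lines for 45 of the 288 lincRNAs (15.6%), beside 46.2% of all genes, and under TMM for 30 of 321 (9.35%), beside 12.4%. The MED14 effect differed from the wild-type effect of dTAG7 for 73 lincRNAs, 62 of them lower and 11 higher in the MED14 line, beside 57.7% of all genes, and AL713998.1 had the largest such difference among those named, -3.13 ± 0.38 (adjusted p = 5.34e-10, edgeR). The MED14 and CDK9 effects differed for 203 lincRNAs, all with the higher value in the MED14 line, beside 88.4% of all genes. Under TMM, where the shift of the bulk is taken out, that count was 48, with 25 lower and 23 higher in the MED14 line, beside 35.5% of all genes.

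AC005261.1, at chr19:57304305-57308562, had the lowest adjusted p of the last contrast (7.02e-17). It had 48.9, 39.4 and 61.1 CPM with dTAG7 and 48.6, 50.8 and 53.9 CPM with DMSO in the MED14 line (-0.01 ± 0.18, adjusted p = 0.965, edgeR), and 3.48, 3.88 and 8.03 CPM with dTAG7 and 73, 65.6 and 64.4 CPM with DMSO in the CDK9 line (-3.79 ± 0.25, adjusted p = 5.38e-22). LINC00528 had 13.6, 12.9 and 15 CPM with dTAG7 and 8.66, 9.98 and 12.5 CPM with DMSO in the MED14 line (0.43 ± 0.2), and 0.724, 1.66 and 1.05 CPM with dTAG7 and 15.4, 12.8 and 15.7 CPM with DMSO in the CDK9 line (-3.86 ± 0.31). AL035071.1 had 31.7, 36.2 and 38.2 CPM with dTAG7 and 38.1, 34.3 and 43 CPM with DMSO in the MED14 line (-0.12 ± 0.15), and 6.23, 6.66 and 8.73 CPM with dTAG7 and 56.7, 53.3 and 41.9 CPM with DMSO in the CDK9 line (-2.81 ± 0.19). For AC005261.1 and AL035071.1 the groups overlapped in the MED14 line, for LINC00528 they did not, and in the CDK9 line none of the 3 overlapped.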

How the data were processed

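LincRNA counts came from 66 QuantSeq libraries of 22 groups with 3 replicates each. The authors deposited a table of raw counts per gene (13331 genes, 37 ERCC and 7 SIRV spike-ins); per the submitters' processing notes STAR 2.5.2b, HTSeq 0.6.0, bedtools 2.26.0 and build hg38 were used, and the strand setting is not given in the sources used here. A second deposited table, of loess-normalized values, was not used. Every gene in the table had 70 or more counts in total and was above 0 in at least 20 libraries, so the table had been filtered. Ensembl identifiers were named with GENCODE 29 (13297 of 13331).

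Counts were tested with edgeR 4.0.16 in R 4.3.3 (glmQLFit and glmQLFTest, filterByExpr, all 66 libraries, 44 residual degrees of freedom), with spike-in totals as library sizes, and p-values were adjusted by Benjamini and Hochberg over 12515 genes at a threshold of 0.05. The 12 comparisons set each treated group against DMSO of the same line, and 3 contrasts compared effects between lines. Genes were named if among the 10 largest called falls or rises (5 in the smaller comparisons) with a mean of 5 CPM or more and no overlap between groups, if among the 5 lowest p-values of a contrast, if among the 10 most abundant, or if on a list of known lincRNAs; further members are named where a count, pair or list turns on them. Members and lists were chosen with earlier results of these data known. Alternatives were TMM and median-of-ratios scaling, no filter, a replicate block, fits of the 6 libraries alone, DESeq2 1.42.0 and leaving out each library (66 fits). The code was tested on simulated data. The labels give no batch. Depth of 439261 to 4337368 counts limits the precision of lincRNAs under 5 CPM. Of the tested lincRNAs, 14 share 20% or more of the 50-base words in their last 300 bases with another gene on the same strand and 15 on the other strand.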

Additional observations from a re-analysis of the deposited data

Results flagged for a closer look

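Differences of the dTAG7 effect between lines were the results that called for a closer look. No test for a single outlying value was made within groups of 3 libraries, and libraries that stood apart over all genes are given in the report. Each p is adjusted over all genes tested (edgeR's quasi-likelihood test). Among the 8 Mediator lines the lowest adjusted p-values were 4.31e-07 for AL713998.1, 2.86e-06 for AF127936.1, 2.28e-05 for AP001505.1, 2.92e-05 for AF127936.2 and 8.05e-05 for BAIAP2-DT. Under TMM the first 4 remained called, at 0.000503, 0.000484, 0.00499 and 0.011, and BAIAP2-DT did not, at 0.248.

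Between the MED14 line and wild-type cells given the same compound, AL713998.1 differed by -3.13 ± 0.38 on the log2 scale (5.34e-10), AP001505.1 by -2.56 ± 0.36 (2.42e-08), AC012354.1 by -2.43 ± 0.39 (5.65e-07), MIR3142HG by -1.74 ± 0.29 (9.02e-07) and NEAT1 by -1.48 ± 0.24 (9.36e-07).

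Between the MED14 and CDK9 lines, AC005261.1 differed by 3.78 ± 0.31 (7.02e-17), LINC00528 by 4.29 ± 0.38 (1.53e-15), AC025181.2 by 6.09 ± 0.54 (2.08e-15), AL035071.1 by 2.69 ± 0.24 (2.11e-15; TMM 0.54, adjusted p = 0.0502) and CYTOR by 2.87 ± 0.27 (1.93e-14). The all-gene medians of the 2 lines, -0.69 and -2.93, lie apart in the same direction.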

How the results depend on the processing

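Scaling moved the most. Under TMM and under median-of-ratios the counts lower became 21 and 20 (MED14), 11 and 10 (MED10), 5 and 5 (MED6), 10 and 10 (MED12), 2 and 2 (MED31), 1 and 1 (MED26), 27 and 23 (CDK9), 18 and 11 (dBET6) and 19 and 15 (THAL-SNS-032); the counts higher became 78 and 80 (MED14), 16 and 16 (MED6), 74 and 77 (CDK9), 67 and 79 (dBET6) and 57 and 65 (THAL-SNS-032). The contrasts of the MED14 line became 36 and 39 against wild type and 48 and 49 against the CDK9 line. Fits of the 6 libraries alone gave 0 lower and 0 higher for MED6 (14 and 10 at an unadjusted p under 0.05, edgeR), 10 lower for MED28, 0 lower for MED12 (7 unadjusted), 2 lower for MED31, and 98, 148 and 134 lower with 0 higher for CDK9, dBET6 and THAL-SNS-032, where the filter left 100, 151 and 137 lincRNAs; such fits were not made for the 3 contrasts. DESeq2 gave 6 higher for MED6 and 2 lower for MED31, and no filter gave 1 higher for MED28, 8 for THAL-SNS-032 and 13 for dBET6. The cause was not tested, except that fewer lincRNAs were tested in fits of 6 libraries.

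Letters A to C were shared by all groups. Over 36 pairs of same-lettered libraries the correlation of deviations was -0.227 to 0.0592, with 0 over 0.1, so the letters were taken to share a name alone. With the replicate block the counts were 76 lower and 28 higher (MED14), 241 and 4 (CDK9), 45 over the 8 lines, 75 and 205 in the MED14 contrasts, and 1 higher for MED28.

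Leaving out each library gave ranges of 60 to 74 lower and 22 to 29 higher (MED14), 11 to 17 and 9 to 16 (MED10), 7 to 18 and 4 to 10 (MED6), 2 to 5 and 0 to 1 (MED28), 0 to 6 and 0 to 1 (MED12), 0 to 2 and 2 to 4 (MED31), 1 to 3 and 0 to 3 (MED26), 228 to 252 and 1 to 6 (CDK9), 271 to 278 and 3 to 6 (dBET6) and 248 to 261 and 2 to 4 (THAL-SNS-032). It left 0 for MED1 and wild-type dTAG7, and 36 to 51, 65 to 75 and 184 to 211 in the 3 contrasts. The count filter was applied anew in each such fit, with 1 group smaller, so the lincRNAs tested could differ. A range can therefore lie above the main count, as the dBET6 range does above 265 lower, and the ranges do not show the lost library alone.

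Single lincRNAs changed sign mainly with scaling (TMM, then median-of-ratios, log2). In the MED14 line MALAT1 became 0.12 and 0.16, EBLN3P 0.06 and 0.1, AC005261.1 0.68 and 0.72, AC084033.3 0.18 and 0.22, and CRNDE 0.03 by median-of-ratios; AC005261.1, at -0.01, also became 0 in the fit of 6 libraries and 0.02, 0.03 and 0.1 without single libraries (lowest -0.18). In the CDK9 line MALAT1 became 1.56 and 1.68, NEAT1 0.89 and 1.01, EBLN3P 0.19 and 0.3, CRNDE 0.53 and 0.63, AC084033.3 0.51 and 0.62, PVT1 1.8 and 1.9, and MIR155HG 0.09 by median-of-ratios. With dBET6 MALAT1 became 1.81 and 1.96, NEAT1 1.68 and 1.83, MIR4435-2HG 0.09 and 0.24, CRNDE 0.34 and 0.48, AC084033.3 0.29 and 0.44, PVT1 1.33 and 1.48, and EPB41L4A-AS1 0.09 by median-of-ratios. With THAL-SNS-032 MALAT1 became 1.47 and 1.53, NEAT1 0.89 and 0.96, EBLN3P 0.13 and 0.2, CRNDE 0.37 and 0.44, AC084033.3 0.15 and 0.22, PVT1 1.62 and 1.69, and EPB41L4A-AS1 0.02 by median-of-ratios. Of the 163 named values, 162 kept their direction and call with DESeq2, 162 with no filter and 161 with the replicate block.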

Other observations

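Untreated lines differed in some lincRNAs before any compound was given, in groups the comparisons do not set against each other. AP002884.1 averaged 57.5 ± 9.18 CPM in MED31 line DMSO libraries and 0.287 ± 0.498 CPM in those of the MED26 line (SD, n = 3 each), and the second highest line, MED12, was at 1.53 CPM. AF127936.2 averaged 30 ± 1.85 CPM in the MED12 line and 2.28 ± 2.24 CPM in the CDK9 line. AF127936.1, which fell in the MED14 line, averaged 23.8 ± 5.41 CPM there and 4.88 ± 0.983 CPM in wild-type cells. LINC02573 averaged 58 ± 5.95 CPM in the MED12 line and 18.5 ± 1.21 CPM in the MED14 line.

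Taken over 10 untreated lines, the log2 ratio of the highest to the lowest line mean had a median of 0.92 for 49 lincRNAs and 1.1 for 585 protein-coding genes at 5 to 8 CPM, 0.74 for 48 and 0.88 for 1227 at 8 to 16 CPM, 0.85 for 18 and 0.69 for 1775 at 16 to 32 CPM, and 0.74 for 21 and 0.52 for 6411 at 32 CPM or more. Each line was a separate culture with its own tag, and line and culture cannot be told apart here.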
